A study of Homo sapiens with 7 samples.

Results

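The 9 genes described here encode proteins particular to the U4/U6 snRNP and the U4/U6.U5 tri-snRNP of the spliceosome, namely PRPF3, PRPF4, PPIH, PRPF31, NHP2L1, SART1, USP39, SNRNP27 and SART3. They were taken by name from a genome-wide CRISPR knockout screen and account for 9 of 19112 targeted genes and 36 of 77441 guide RNAs, 4 guides per gene. The screen used HCT116, a human colorectal carcinoma line, in which a GFP splicing reporter with detained intron 4 of OGT (O-GlcNAc transferase) had been placed at the AAVS1 locus and carried forward as a clonal line. All cell libraries came from such reporter cells infected with the genome-wide Brunello library of guides (multiplicity of infection 0.3), kept in puromycin for 8 days from day 2, and given 1 µM thiamet G (TG, which blocks removal of O-GlcNAc and lowers reporter GFP) for 24 h from day 9 with a fresh dose every 12 h. Cells of high GFP were sorted at the end of day 10 (sorted, 3 libraries), and unsorted cells of the same treatment served as control (input, 3 libraries). A further library (n = 1) measured the guide pool, which the series record ascribes to unselected cells and the study's methods to the DNA from which virus was made. The screen asked which genes, when lost, raised GFP under TG.

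U4 and U6 snRNAs enter the spliceosome base-paired to each other, so that the catalytic U6 is held inactive until it is released. PRPF3, PRPF4 and PPIH bind this duplex as a complex, and NHP2L1 (now named SNU13) binds a stem-loop of U4 and recruits PRPF31. Joining of the U5 snRNP gives the tri-snRNP, which additionally carries SART1, USP39 and SNRNP27, whereas SART3 helps U4 and U6 to pair again after each round of splicing and leaves before the tri-snRNP forms.

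Reads totalled 26.2 to 31.0 M per cell library and 35.8 M in the guide pool (in units of 1000000). Guides without a read made up 0.173 to 0.227% of all guides in input but 7.26 to 10.8% in sorted cells, and the correlation between libraries across guides (guides are not independent replicates) was 0.85 to 0.92 in input and 0.32 to 0.34 in sorted cells. The median gene had a log2 fold change of -0.56, sorted over input, and the value of each member is therefore also given relative to this median. This reference depends on the scale, since the median guide stood at -0.19 and the median gene at 0.03 by edgeR on summed reads. A shift of the reference moves the relative values of all genes by the same amount. With edgeR on summed reads, a gene's own value also differed. The own value of SNRNP27 was 0.80 here and 0.57 by edgeR, or 1.36 and 0.54 relative to all genes. For PRPF4 the own value was -0.11 here and 0.91 by edgeR, or 0.45 and 0.89 relative to all genes. OGT, the check of the screen, had a log2 fold change of 5.23 ± 0.22 (SE, limma). Libraries are numbered here in the order in which the values are given, since no replicate number goes with them, and the pilot replicate (100-fold library coverage in place of 300-fold) cannot be told from the others.

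Guide sequences are shown for SNRNP27, the member called enriched in sorted cells (all 4 guides), and for each other member as the pair of guides with the lowest and the highest log2 fold change, since members differed widely among their own guides. Each line gives the exon of the transcript used, the position of the 20 guide bases in GRCh38, and the guide in lower case followed by its genomic PAM in capitals.
PRPF3 guide 23955, lowest, exon 8, chr1:150338209-150338228, plus strand: caggcatccatacttcgactAGG
PRPF3 guide 23953, highest, exon 10, chr1:150343314-150343333, plus strand: aatgacacaccagttactctGGG
PRPF4 guide 23949, lowest, exon 8, chr9:113286277-113286296, minus strand: acttacctcgaagagtgtgaAGG
PRPF4 guide 23951, highest, exon 2, chr9:113276672-113276691, plus strand: ggaaagacggacttaaagcaGGG
PPIH guide 28175, lowest, exon 6, chr1:42664875-42664894, plus strand: ggagtcgccagtatttaccgGGG
PPIH guide 28174, highest, exon 6, chr1:42664946-42664965, minus strand: cctcacttaccatggaaagcAGG
PRPF31 guide 34603, lowest, exon 3, chr19:54118612-54118631, plus strand: aagcaagccaaagcttcagaAGG
PRPF31 guide 34605, highest, exon 2, chr19:54118392-54118411, plus strand: gacacagctggatctttccgGGG
NHP2L1 guide 12601, lowest, exon 2, chr22:41680274-41680293, plus strand: agttacatgactgctgaacgAGG
NHP2L1 guide 12603, highest, exon 2, chr22:41680247-41680266, minus strand: gcttcggaaaggagccaatgAGG
SART1 guide 23833, lowest, exon 9, chr11:65966529-65966548, plus strand: ctccgaatacctcacgcctgAGG
SART1 guide 23835, highest, exon 1, chr11:65962068-65962087, plus strand: gaagcgcgatgacggctacgAGG
USP39 guide 28954, lowest, exon 6, chr2:85630777-85630796, plus strand: gaacatcaaacgtcctccagGGG
USP39 guide 28952, highest, exon 6, chr2:85630886-85630905, minus strand: actgcctgaagcatctcatgGGG
SNRNP27 guide 29861, exon 2, chr2:69895079-69895098, plus strand: gtgcgtttgcattagaacgtAGG
SNRNP27 guide 29859, exon 2, chr2:69895115-69895134, plus strand: catcccgggagagagaacgcAGG
SNRNP27 guide 29862, exon 2, chr2:69895185-69895204, minus strand: ttcggtgcggggatcgcgagCGG
SNRNP27 guide 29860, exon 3, chr2:69896443-69896462, minus strand: gatgtggatctatgtcgtctTGG
SART3 guide 25781, lowest, exon 4, chr12:108545240-108545259, plus strand: acacggagcgaactttctcaAGG
SART3 guide 25782, highest, exon 1, chr12:108561002-108561021, minus strand: ctgcgacatacaagaccatgGGG

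All 36 guides had 1 perfect match followed by NGG in the genome, and it lay in the named gene. The predicted cut, 3 bases before the PAM, fell in coding sequence for 35 guides, between 5.19 and 63.7% of the way along the protein. The exception was PRPF31 guide 34606, whose cut lay at the very edge of an exon, on its intron side. In 5 guides, among them SNRNP27 guide 29861, PPIH guide 28174 and PRPF4 guide 23949 above, the 20 bases crossed an exon edge. GC content ranged from 40 to 75%.

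Before sorting, guides to these genes were somewhat less abundant in cells than in the guide pool. The median member guide stood at 0.834-fold of the pool in input (log2 ratio -0.26, each library scaled to its median guide, and -0.38, -0.24 and -0.25 in the 3 input libraries). Of the 36 guides, 24 were below their level in the pool, against 46.5% of all guides, and 5 (13.9%) were below 0.5-fold, against 6.51% of all guides. With a single pool library these are values without a test, and scaling to the non-targeting guides, which are designed to match no site in the genome, moved the median to -0.60. That scaling moves every guide by the same amount, so the distance of the members to all guides is unchanged.

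Among the U4/U6 proteins, PRPF3, a core protein of the U4/U6 duplex, was lowest, with a median guide at 0.536-fold of the pool, and PRPF31 followed at 0.614-fold. PRPF4 stood at 0.892-fold, NHP2L1 at 0.816-fold and PPIH, a cyclophilin-type prolyl isomerase, at 0.985-fold. Of the tri-snRNP proteins, USP39 stood at 0.623-fold and SART1 at 0.781-fold, whereas SNRNP27 was above the pool at 1.20-fold. SART3 stood at 0.841-fold. No member had a median guide below 0.5-fold of the pool, a level that 1.32% of all genes passed. The 5 guides below it were PRPF3 guides 23955 and 23956 (0.464- and 0.488-fold), NHP2L1 guide 12602 (0.464-fold), SNRNP27 guide 29859 (0.423-fold) and USP39 guide 28952 (0.296-fold).

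In sorted cells most of these genes had more guide reads than in input, and a single member passed the test. SNRNP27 was enriched by rank aggregation of its guides (adjusted p = 0.0389), 1 of 9 members against 0.324% of all genes. No member was depleted by the same test, which called 0.00523% of all genes depleted. Without adjustment, rank aggregation placed 4 members at an enrichment p below 0.05 (SNRNP27, SART3, PRPF31 and USP39), against 5.47% of all genes, and none at such a depletion p (5.52% of all genes). Limma on gene means gave the same 4 higher (1.96% of all genes) and PPIH lower (13.9%). After limma's adjustment no member passed, against 0.0157% of all genes, and edgeR on summed reads called no member among 52 genes.

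Member log2 fold changes ran from -2.20 to 1.30, with a median of 0.53, which lay 1.09 above the median of all genes. The distance to all genes was 0.62 in sorted library 1, 1.50 in library 2 and 1.32 in library 3. A log2 fold change above 0 was found in 6 of 9 members, against 21.5% of all genes, and in all 4 guides of 3 members (PRPF31, SNRNP27 and SART3), against 4.18% of all genes. The mean over guides of the log2 count was above every input library in all 3 sorted libraries for PRPF31, USP39, SNRNP27 and SART3 (4.56% of all genes), and below in all 3 for PPIH (22.9% of all genes). Sums of counts, which weight abundant guides more than the mean of logs does, gave 6 members above (also NHP2L1 and SART1) and none below, against 17.7% and 3.55% of all genes.

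**Figure D1:**
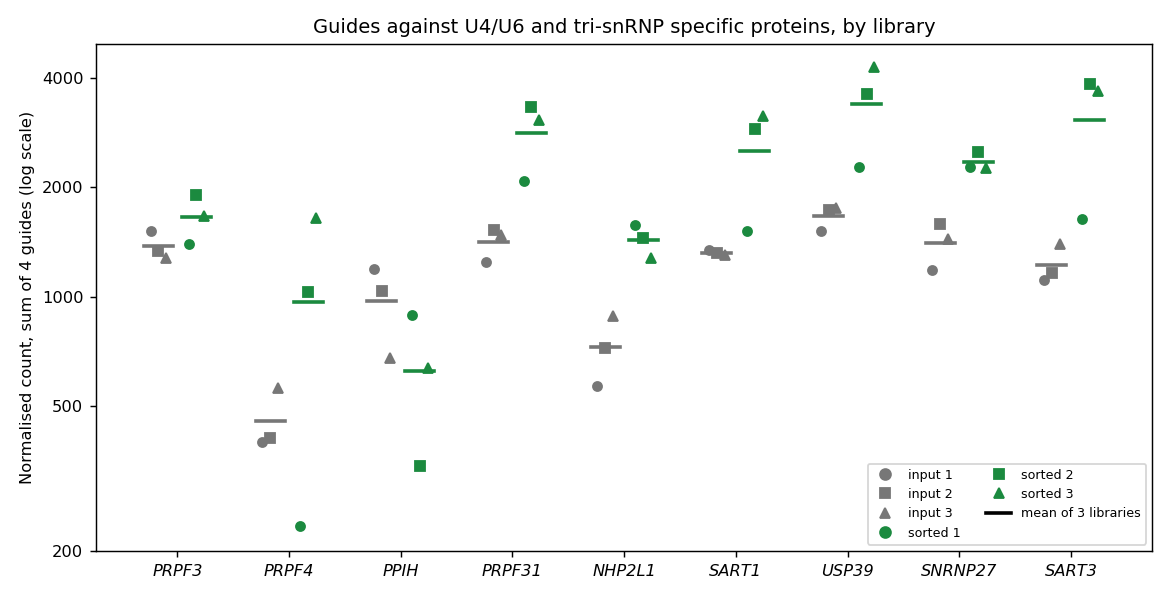
Normalized counts summed over the 4 guides of each member, by library, on a log axis, with input libraries in grey, sorted libraries in green and horizontal bars for the mean of 3 libraries. Sums of PRPF31, NHP2L1, SART1, USP39, SNRNP27 and SART3 lie higher in all 3 sorted libraries than in any input library, while PRPF3, PRPF4 and PPIH overlap.

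PRPF3, whose missense alleles are known in dominant retinitis pigmentosa, showed no shared direction among its guides. Its summed normalized count was 1518, 1332 and 1280 in input libraries 1 to 3 and 1394, 1909 and 1667 in sorted libraries 1 to 3. The groups overlapped, and the log2 fold change of the guide mean was -0.30 ± 0.43 (SE, limma adjusted p = 0.694), or 0.26 relative to all genes, whereas edgeR on summed reads gave 0.09. Guide 23953 in exon 10 went from 488, 324 and 302 to 583, 1259 and 645, while guide 23955 in exon 8 went from 188, 298 and 244 to 126, 2.29 and 331. The latter was thus nearly absent from sorted library 2 alone, and the mean of the other 3 guides was 0.33, a value chosen after the data were seen. Guide 23954 in exon 6 was lower in every sorted library (285, 463 and 490) than in any input library (600, 509 and 601).

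PRPF4, the WD-repeat partner of PRPF3, had the widest spread between sorted libraries. The sums were 397, 409 and 561 in input and 234, 1028 and 1647 in sorted cells. By sums, sorted library 1 lay below all inputs and libraries 2 and 3 above them. The mean over guides of the log2 count gave log2 fold changes of -2.28, 0.08 and 1.88, with sorted library 2 within the input range. Its overall value was -0.11 ± 1.00 (SE, limma adjusted p = 0.958), or 0.45 relative to all genes. The sign depended on the processing, with 0.26 at a pseudocount of 10, 0.91 by edgeR on summed reads, 0.98 without sorted library 1, 0.055 without input library 3 and -1.10 without sorted library 3. Guide 23951 in exon 2 was higher in each sorted library (155, 327 and 419) than in any input library (77.3, 70.9 and 90.2). Guide 23949 in exon 8 had 0, 3.43 and 500 in sorted cells against 118, 94.5 and 184 in input, and the mean of the other 3 guides was 0.96. The summed count of PRPF4 in input was the lowest of the 9 members.

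PPIH differed from the other members in that all 4 of its guides had negative log2 fold changes. Its summed count was 1194, 1036 and 680 in input and 890, 343 and 637 in sorted cells, so that the sums overlapped. The guide mean gave -2.20 ± 0.59 (SE, limma adjusted p = 0.205), -1.64 relative to all genes, with -1.48, -2.88 and -2.23 in the 3 sorted libraries, and rank aggregation gave an adjusted depletion p of 0.934. Much of this came from guide 28175 in exon 6, which held 193, 194 and 98.9 in input but 1 read in sorted library 1 and none in libraries 2 and 3. That is 0.186% of its input level (95% exact Poisson interval 0.00471 to 1.04%, counting error of the sorted reads only). Its log2 fold change of -6.97 ± 1.24 depends on the pseudocount of 1 and had the smallest adjusted p of any member guide (limma, 0.0626). The other 3 guides had log2 fold changes of -0.73, -0.58 and -0.49, with a mean of -0.60. The median of all genes (-0.56) is not a like reference, since it keeps the nearly lost guides of other genes. The median of all guides was -0.19. When every gene lost its guides averaging under 200 in input, guide 28175 dropped out and PPIH kept the other 3. PPIH then stood at -0.60 against -0.19 for the median gene, or -0.41 relative to it. Limma on gene means called no member in that setting.

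PRPF31, which NHP2L1 recruits to U4 and which is a common cause of dominant retinitis pigmentosa, was higher in sorted cells with all 4 guides. The sums were 1242, 1526 and 1476 in input and 2074, 3329 and 3060 in sorted cells. By sum and by guide mean, no sorted library overlapped the inputs. The log2 fold change was 0.95 ± 0.24 (SE, limma adjusted p = 0.204, rank aggregation adjusted p = 0.200), 1.51 relative to all genes, or 0.70, 0.88 and 1.27 by sorted library. Guide 34605 in exon 2 went from 241, 253 and 187 to 318, 1350 and 622, and it alone had every sorted library above every input library. In sorted library 2, guides 34603 and 34604 lay within the input range (251 and 171, against inputs of up to 311 and 287). Guide 34606, cutting at an exon edge, went from 629, 867 and 690 to 838, 1556 and 986, where sorted library 1 lay within the input range.

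NHP2L1, an RNA-binding protein shared with box C/D snoRNPs, had sums of 568, 723 and 884 in input and 1576, 1446 and 1275 in sorted cells. The sums did not overlap, whereas the guide means did, with 0.38 ± 0.47 (SE, limma adjusted p = 0.657), or 0.94 relative to all genes. Guide 12603 in exon 2 was more abundant in every sorted library (747, 810 and 540) than in any input library (287, 293 and 368). Guide 12601, which targets the other strand of the same exon, had 522, 6.86 and 570 in sorted cells against 125, 176 and 170 in input, so only sorted library 2 was low. Without that guide the mean was 0.58.

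**Figure D2:**
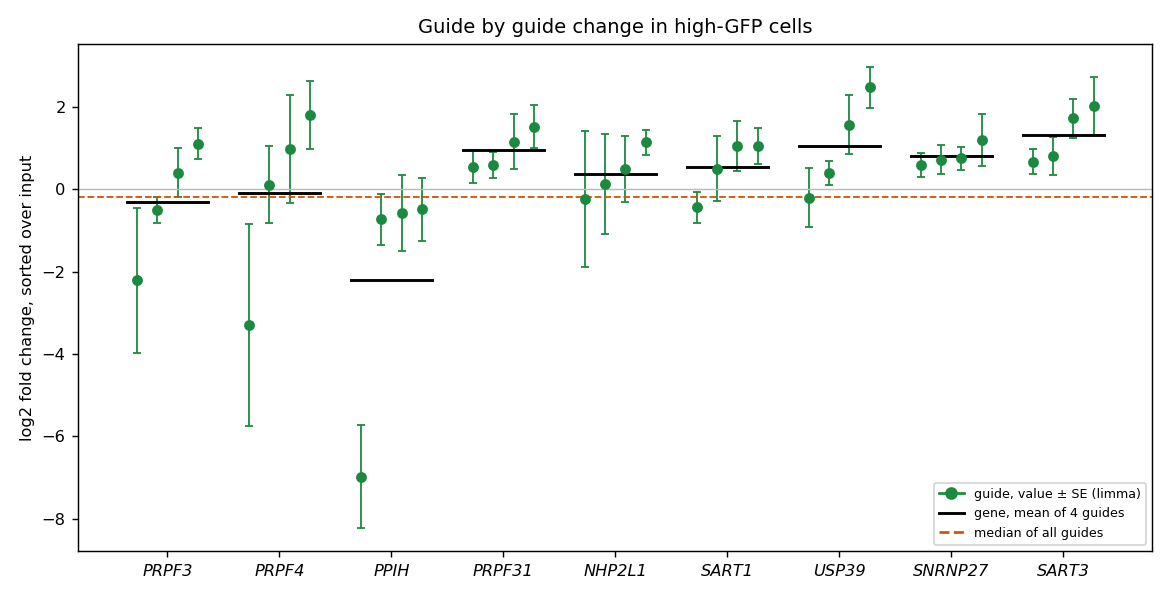
Log2 fold change, sorted over input, of each of the 36 member guides, as limma estimates with standard errors, grouped by gene, with a black bar for the mean of the 4 guides and a dashed line for the median of all guides (-0.19). SNRNP27, SART3 and PRPF31 have all 4 guides above 0 and PPIH has all 4 below, with guide 28175 at -6.97.

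SART1, which joins U5 to U4/U6 in the tri-snRNP, had a sum of 1343, 1319 and 1302 in input and 1515, 2896 and 3139 in sorted cells. Sorted library 1 stood just above the inputs and the others far above. The log2 fold change was 0.53 ± 0.36 (SE, limma adjusted p = 0.461), 1.09 relative to all genes, with -0.28, 0.86 and 1.02 by sorted library, and 3 of its 4 guides (23833, 23834 and 23836) were lower in sorted library 1 than in any input library. Guide 23835 in exon 1 went from 452, 340 and 446 to 980, 431 and 1432.

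USP39, a ubiquitin protease homologue without protease activity that is needed for tri-snRNP function, had sums of 1514, 1736 and 1755 in input and 2276, 3618 and 4281 in sorted cells. The groups did not overlap, and the log2 fold change was 1.05 ± 0.32 (SE, limma adjusted p = 0.217, rank aggregation adjusted p = 0.802), or 1.61 relative to all genes. Its guides were unequal. Guide 28952 in exon 6 went from 155, 199 and 216 to 950, 551 and 2168, the largest log2 fold change of any member guide (2.47 ± 0.49, limma adjusted p = 0.103), and it was also the member guide most reduced in input against the pool. Guide 28954 in the same exon went from 368, 377 and 342 to 114, 1008 and 267, with libraries on both sides of input.

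SNRNP27, a small arginine-serine-rich protein of the tri-snRNP, had the smallest spread among its guides. The sums were 1184, 1580 and 1442 in input and 2273, 2495 and 2261 in sorted cells, without overlap. Its log2 fold change was 0.80 ± 0.23 (SE), or 1.75-fold (1.36 relative to all genes on the log2 scale), with 0.59, 0.98 and 0.84 by sorted library. Guide 29859 went from 115, 118 and 167 to 174, 400 and 388, and guide 29861 from 258, 268 and 245 to 321, 494 and 471. Guide 29862 went from 368, 609 and 455 to 777, 776 and 804, and guide 29860 from 443, 585 and 574 to 1001, 825 and 598. Each of the 4 guides was thus higher in every sorted library than in any input library, which held for 9.04% of all guides. Their log2 fold changes lay between 0.58 and 1.18, with an SD of 0.262 over guides that is the smallest of the 9 members.

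The call for SNRNP27 was close to the threshold. Its adjusted p by rank aggregation was 0.133 without input library 1, 0.0537 without input library 2, and 0.495, 0.384 and 0.503 without sorted library 1, 2 or 3. It was 0.0516 with guide p-values from edgeR, 0.0602 with libraries scaled to equal totals, and 0.439 when only guides with a mean input of at least 200 were kept. Over all genes, 62 were called in the main fit, 49, 22 and 20 without sorted library 1, 2 or 3, and 19 with that filter. The call held without input library 3 (0.0379), at a pseudocount of 10 (0.0392), with a mean input of at least 30 (0.0449) and when scaled to non-targeting guides (0.0393). The log2 fold change stayed above the median of all genes in each of these settings, by 0.54 (edgeR) to 1.51 (without sorted library 1).

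SART3, the recycling factor, had the highest log2 fold change of the members. Its summed count was 1110, 1163 and 1397 in input and 1630, 3837 and 3685 in sorted cells. All sorted libraries exceeded all inputs, and the log2 fold change was 1.30 ± 0.33 (SE, limma adjusted p = 0.205), or 2.46-fold (1.86 relative to all genes on the log2 scale), with 0.63, 1.84 and 1.42 by sorted library. Rank aggregation gave an adjusted p of 0.0692. That value was 0.0241 without input library 3 and 0.0303 with guide p-values from edgeR, and reached 0.680 in other settings. Guide 25782 in exon 1 went from 64.2, 135 and 139 to 362, 949 and 237, and guide 25783 in exon 12 from 239, 233 and 298 to 387, 1246 and 1225. Both were above input in every sorted library, and so was guide 25781 in exon 4 (319, 313 and 357 to 431, 688 and 483). Guide 25784 in exon 7 (488, 482 and 602 to 450, 955 and 1740) was not, because of sorted library 1.

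Guide by guide, 26 of the 36 had a log2 fold change above 0, against 41.4% of all guides, and 13 (36.1%) were higher in every sorted library than in any input library, against 9.04%. Lower in every sorted library than in any input library were 2 guides (PRPF3 guide 23954 and PPIH guide 28175), against 7.47% of all guides. Limma gave an unadjusted p below 0.05 for 8 guides that were higher (4.42% of all guides) and 1 that was lower (2.94%), and none passed adjustment, against 0.682% of all guides. The members' guides share 9 targets and are not independent replicates. A normalized count under 10 in at least 1 sorted library was found for 4 guides, against 27.7% of all guides. These were PRPF3 guide 23955, PRPF4 guide 23949, PPIH guide 28175 and NHP2L1 guide 12601.

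Limma's calls of members depended most on sorted library 1. Without it, limma on gene means called 5 members (PPIH at -2.55, and PRPF31 at 1.07, SART1 at 0.94, USP39 at 1.38 and SART3 at 1.63, with adjusted p from 0.0397 to 0.0485), while 6.14% of all genes were then called. Limma on guides called 3 without it (PPIH guide 28175, SART1 guide 23836 and SART3 guide 25783, adjusted p = 0.0243, 0.0361 and 0.0241). Of all 77388 guides, 2538 were then called, against 528 with every library kept. PPIH guide 28175 was also called without input library 1 and without sorted library 3 (adjusted p = 0.0436 and 0.0451). In these fits 683 and 1947 of all guides were called.

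**Figure D3:**
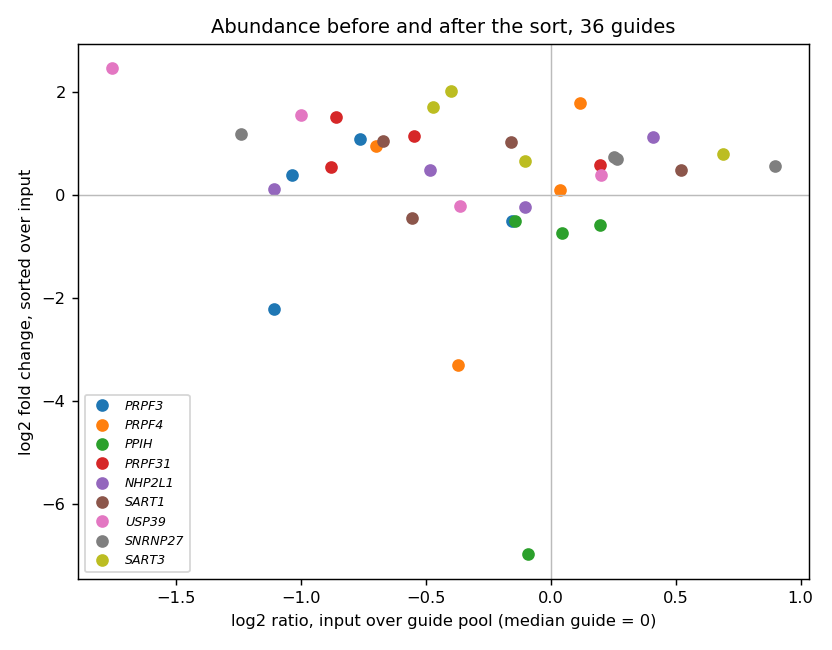
Log2 ratio of input over guide pool (horizontal) against log2 fold change of sorted over input (vertical) for the 36 member guides, coloured by gene. USP39 guide 28952 lies at -1.76 and 2.47, and the guides as a whole show little relation.

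Representation before sorting and enrichment in sorted cells showed little relation across the 36 guides (Pearson's r = -0.13, Spearman's rho = -0.19, a description over guides that share genes and libraries). Input counts enter both ratios with opposite sign. PRPF3, the member lowest in input against the pool, was not called in sorted cells, and SNRNP27, the highest in input, was the enriched one.

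Related proteins, by lists chosen with earlier results known, are read against the same 0.324% of all genes enriched by rank aggregation. Of 7 measured U5 snRNP genes, 4 were enriched by rank aggregation (the helicases SNRNP200 at a log2 fold change of 2.41 and DDX23 at 2.35, with SNRNP40 at 1.09 and CD2BP2 at 1.29), and the median lay 1.66 above that of all genes. TXNL4A, a further U5 protein, was not analysed here. Of 7 proteins that join with the tri-snRNP in the B complex, 2 were enriched (SMU1 at 2.24 and IK at 2.00, median 1.20 above all genes). The LSm2-8 ring, which binds the end of U6, had 2 of 7 (LSM2 at 1.62 and LSM4 at 1.56, median 0.95 above), and the Sm ring, shared by the other spliceosomal snRNAs, 1 of 7 (SNRPD1 at 1.73, median 1.58 above). Among the 6 genes of U6 maturation, TUT1, which adds uridines to U6, was enriched (1.55, median 0.56 above), and of 3 genes of the ubiquitin cycle acting on the tri-snRNP, PRPF19 was (2.29, median 0.17 above).

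No gene of the last pair of lists was called in either direction, although ZNHIT2 was with guide p-values from edgeR (adjusted p = 0.0205). The 3 box C/D snoRNP proteins that share NHP2L1 had a median 0.36 below that of all genes, with FBL at -0.50 ± 0.80, NOP58 at -0.92 ± 0.83 (SE) and NOP56, named for being the lowest, at -2.58. The 5 tri-snRNP assembly factors had a median 0.82 above, with ZNHIT2 at 2.30 ± 0.52 and ECD at 1.12 ± 0.56 (rank aggregation adjusted p = 0.408 and 0.858). Calls named for the lists were lost without sorted library 2 for SNRNP200, IK and TUT1 (adjusted p = 0.0758, 0.0635 and 0.0896), SNRNP40 (0.313), CD2BP2 (0.434), LSM2 (0.186), LSM4 (0.109) and SNRPD1 (0.229). They were lost without sorted library 3 for SNRNP200 (0.117), IK (0.0945), TUT1 (0.159), SNRNP40 (0.160), CD2BP2 (0.582), LSM2 (0.0934), SNRPD1 (0.317) and PRPF19 (0.231), and without sorted library 1 for LSM2 (0.243) and LSM4 (0.382). When guides with a mean input under 200 were dropped, SNRNP200 could not be tested and calls were lost for DDX23 (0.384), SMU1 (0.0900), PRPF19 (0.0539), SNRNP40 (0.299), CD2BP2 (0.0580), LSM2 (0.557), LSM4 (0.855) and SNRPD1 (0.443). The difference between the lists and the 9 members was not tested.

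**Figure D4:**
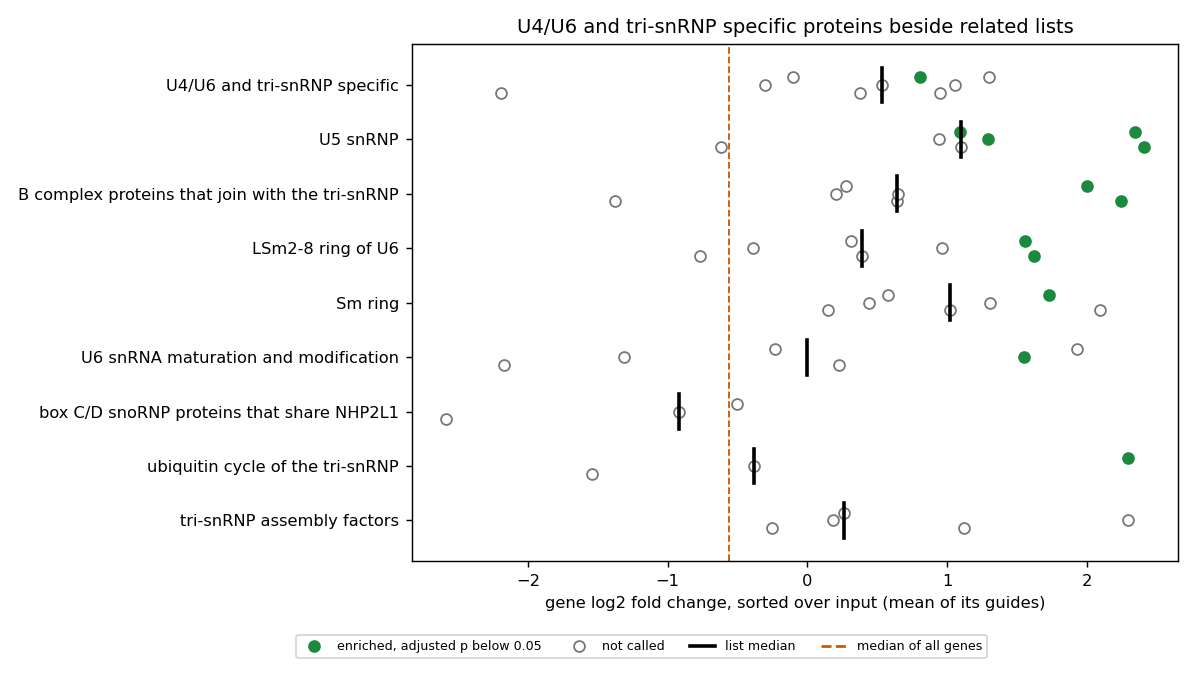
Gene log2 fold change, sorted over input, for the 9 U4/U6 and tri-snRNP specific proteins (top row) and 8 lists of related proteins, with filled points for genes enriched by rank aggregation, a bar for each list's median and a dashed line for the median of all genes. The 9 members have 1 filled point (SNRNP27) with PPIH lowest among them at -2.20, and the U5 row has 4 filled points.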

How the data were processed

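By the submitters' processing notes, the tools the authors ran on the reads were FastQC 0.11.9, cutadapt 3.3 and MAGeCK. The deposited values are a normalized count per guide, which is reads times 1 factor per library, and a raw count per guide for the pool. Low values were whole multiples of 1 read (100% within 0.1), so reads could be recovered. The authors' own comparisons (log2 fold changes, p-values and gene ranks) were not used. Guides were matched to GRCh38 with GENCODE 44.

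Of 77441 guides, 77388 with a read in any of the 6 cell libraries were tested with limma 3.58.1 (R 4.3.3, eBayes with trend) on log2(normalized count + 1), and genes likewise on the mean over guides. The added 1 shrinks the fold changes of rare guides, while a near loss in some sorted libraries can pull a guide's value far down. PRPF4 guide 23949 had a log2 fold change of -3.29, although its mean sorted count was 1.27-fold of its mean input. Rank aggregation was rebuilt after MAGeCK's method from one-sided guide p-values (alpha 25%, 1000000 null draws), with Benjamini-Hochberg adjustment over 19112 genes and a threshold of 0.05. Its null is over guides, whereas limma's measures the spread between libraries labelled biological replicates. Pool ratios were scaled to the median guide. edgeR 4.0.16 on recovered reads, other pseudocounts, filters, scalings and each library left out were alternatives. The fits were tested on simulated data with a single spread per group and no separate loss of guides in sorted cells. That test therefore does not cover such loss. Reads carry no molecular identifiers, so the counting interval covers counting error only.

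All 9 members are named. Of the 8 related lists, enriched genes are named, or otherwise the pair with the smallest p. Members and lists were chosen with earlier results of these data known.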

Additional observations from a re-analysis of the deposited data

How the results depend on the processing

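The median log2 fold change of the 9 members relative to all genes (1.09) stayed between 0.79 (edgeR) and 1.54 (without sorted library 1) in all alternatives. The count of members enriched by rank aggregation (1) fell to 0 with a mean input of at least 200 and with equal totals, was 2 at an adjusted threshold of 0.1, and ranged from 0 to 2 when 1 library was left out. Over all genes, 62 were enriched in the main fit, 19 with a mean input of at least 200 and 68 with equal totals. Without sorted library 1, 2 or 3 there were 49, 22 and 20, and without an input library 60 to 64. With edgeR the count of members was again 1, among 82 genes enriched, but the member was SART3 and not SNRNP27. Members called by limma on gene means (0) ranged from 0 to 5 with 1 library left out. The 5 were called without sorted library 1, where 6.14% of all genes were called, against 0.0157% in the main fit. Member guides called by limma (0) were 1 with a mean input of at least 30 and 1 at a threshold of 0.1, and ranged from 0 to 3 with 1 library left out. Over all guides, 528 were called in the main fit and 599 with a mean input of at least 30. With 1 library left out, the calls over all guides ran from 0 (without sorted library 2) to 2538 (without sorted library 1). The median log2 ratio of input over pool (-0.26) was -0.60 when scaled to non-targeting guides, a shift that all guides share. Relative to all genes, PRPF3 (0.26) was -0.35 with a mean input of at least 200. With 1 library left out, PRPF3 ranged from -0.041 (without sorted library 3) to 0.55, PRPF4 (0.45) from -0.54 (without sorted library 3) to 1.58, FBL (0.06) from -0.39 (without sorted library 1) to 0.83, and NOP58 (-0.36) from -1.04 to 0.50 (without sorted library 3). The causes were not tested. With a mean input of at least 200, 8 members and 23 of their guides remained, and PRPF4 could not be tested. The median log2 fold change of all genes ran from -0.78 (equal totals) to 0.03 (edgeR), so the sign of a gene's own value depends on the scale. No paired analysis was possible because the deposited values carry no replicate numbers, and the planned fit with the replicate as a block was not run.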
